A study of Mus musculus with 12 samples.

Results

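Ephrin-A ligands and EphA receptors were followed in the newborn visual thalamus of 2 mouse lines. The set held 10 of the 24480 genes in the count tables, matched by symbol and chosen with earlier results of these data known. It comprised the 5 ligands Efna1, Efna2, Efna3, Efna4 and Efna5 and the 5 receptors Epha3, Epha4, Epha5, Epha7 and Epha8. RNA came from the dorsolateral geniculate nucleus (dLGN), the thalamic relay between retina and visual cortex, dissected at postnatal day 0. There were 12 libraries in 4 groups of 3, each made from the pooled dLGNs of 3 animals of one genotype. Sox2 mutants were Sox2flox/flox;Ror-alphaCre, and their controls were Sox2flox/flox or Sox2flox/+ without Cre. Nr2f1 mutants were Nr2f1 flox/flox;Ror-alphaCre. The label of the Nr2f1 controls names the same floxed alleles and Ror-alphaCre but ends in "no Cre". They were treated as the Cre-negative littermates that the study's methods describe, which were Nr2f1 flox/flox or Nr2f1 flox/+. Cre sat in the Rora locus and deleted in postmitotic cells of the sensory thalamus, so that retina and cortex were spared at early stages. Every mutant library carried the Cre allele and no control library did, so within each line loss of the floxed gene and presence of the Cre allele cannot be told apart. Both mutant lines carried the same Cre driver, and whether their changes differed was tested separately.

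Ephrin-A proteins are tethered to the cell surface by a lipid (GPI) anchor, and EphA receptors are tyrosine kinases on the facing cell. Contact between them usually repels or collapses a growth cone (forward signalling), and ligand-bearing axons can also respond through partner receptors (reverse signalling). Opposing gradients of ligand and receptor are a textbook mechanism by which retinal axons map topographically in their brain targets and thalamic axons map in cortex. Bulk RNA from a whole nucleus holds no position, so the values below are levels over the nucleus and not gradients. Fewer cells of a type and less RNA per cell cannot be told apart in such samples.

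The targeted genes followed their labels. Levels are given as counts per 1000000 library counts after TMM scaling (CPM). Sox2 stood at 361, 363 and 382 CPM in the Sox2-line controls and at 116, 150 and 152 in the mutants, with a log2 fold change and SE of -1.40 ± 0.10 (edgeR FDR 4.83e-05). Nr2f1 stood at 311, 370.4 and 380.1 CPM in the Nr2f1-line controls and at 105, 151 and 101 in the mutants (-1.57 ± 0.14, edgeR FDR 0.000348). Sox2 itself also fell in the Nr2f1 mutants, by 0.55 on the log2 scale (edgeR FDR 0.00635). In the Sox2 mutants Nr2f1 was at 227, 313 and 221 CPM against 308, 345 and 344, a log2 difference of -0.39 that did not pass (edgeR FDR 0.0559). A call here means a false discovery rate (FDR) under 0.01 from edgeR's quasi-likelihood F-test with Benjamini-Hochberg adjustment over all genes tested in that line. Library totals ran from 39293465 to 50095344 counts, and the 10 most abundant genes took 6.21 to 8.98% of them.

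All 10 members passed the filter on low counts in both lines. In the Sox2 mutants 6 of the 10 were called, 5 lower (Efna2, Efna3, Efna5, Epha4, Epha8) and 1 higher (Epha5). Of all 15602 genes tested there 8.08% were called, 4.19% lower and 3.9% higher. The Nr2f1 mutants had 2 of the 10 called, both lower (Epha4, Epha7), beside 2.54% of all 15600 genes tested, 1.32% lower and 1.22% higher. Epha4 alone was called in both lines in the reported fit, a pattern held by 1.17% of the 15397 genes tested in both. With no filter on low counts Efna5 and Epha5 also passed in both lines, each in opposite directions. Their edgeR FDRs in that fit were 1.15e-06 and 0.00526 in the Sox2 line and 0.00769 and 0.00569 in the Nr2f1 line. Over all genes 1525 and 581 were called there. The median log2 fold change of the 10 members was -0.49 in the Sox2 mutants and -0.15 in the Nr2f1 mutants, beside 0.00050 and 0.014 over all genes tested. Counting libraries rather than calls, mutants and controls did not overlap for 7 members of the Sox2 comparison and 5 of the Nr2f1 comparison, where 37.9% and 28.6% of all genes did not overlap. An unadjusted p under 0.05 was held by 5458 of the 15602 genes in the Sox2 line and 3831 of the 15600 in the Nr2f1 line. DESeq2 called 2468 of 15294 genes in the Sox2 line and 1112 of 14691 in the Nr2f1 line, and edgeR's likelihood ratio test called 2351 and 1089. Counts of these kinds for the lists below stand beside those shares.

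The 3 members with the largest changes were Efna5 (Sox2 mutants), Epha7 and Epha4 (both Nr2f1 mutants), and the 250 bases before a transcript start of each, as the RefSeq promoter table places it, are shown because they border the regions where transcription of the changed genes begins. The sequences are from RefSeq on build GRCm38.p6, written 5′ to 3′ on the strand of the gene, with every CG dinucleotide in capitals.
Efna5, chr17:62881318-62881567, minus strand: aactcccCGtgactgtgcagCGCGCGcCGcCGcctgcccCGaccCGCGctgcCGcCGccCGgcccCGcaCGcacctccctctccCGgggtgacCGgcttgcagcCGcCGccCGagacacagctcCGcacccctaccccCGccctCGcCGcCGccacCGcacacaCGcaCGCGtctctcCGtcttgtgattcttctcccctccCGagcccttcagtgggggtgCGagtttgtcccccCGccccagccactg
Epha7, chr4:28812881-28813130, plus strand, the earlier of the 2 start windows in the table: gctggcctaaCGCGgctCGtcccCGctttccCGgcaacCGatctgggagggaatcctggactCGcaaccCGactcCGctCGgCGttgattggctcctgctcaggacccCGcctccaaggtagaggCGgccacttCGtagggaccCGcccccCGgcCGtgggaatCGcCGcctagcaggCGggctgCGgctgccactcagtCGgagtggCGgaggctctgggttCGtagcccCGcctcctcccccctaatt
Epha4, chr1:77515089-77515338, minus strand: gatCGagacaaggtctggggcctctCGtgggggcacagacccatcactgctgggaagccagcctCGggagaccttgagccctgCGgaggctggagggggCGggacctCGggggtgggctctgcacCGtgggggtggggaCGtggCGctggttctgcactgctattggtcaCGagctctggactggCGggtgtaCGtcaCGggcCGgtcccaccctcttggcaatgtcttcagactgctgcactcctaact
The annotated gene span used for the positions here reaches 65 bases into the Epha7 window and 19 into the Epha4 window, and it ends where the Efna5 window begins. The Efna5 window held 32 CG dinucleotides at 74.8% G+C, the Epha7 window 25 at 69.2% and the Epha4 window 14 at 66.0%. Over 32851 annotated windows the medians were 6 CG and 52.4% G+C. All 10 members were matched, with 13 start windows in all, and these ranged from 7 to 46 CG and from 54.4 to 84.0% G+C. In windows reaching from 250 bases before to 50 after the start, the letters AACAAT (or ATTGTT on the other strand), a core recognised by SOX proteins, occurred in 10.7% of all windows and in 0 of the 13 member windows. The letters AGGTCA (or TGACCT), a core recognised by many nuclear receptors, occurred in 16.3% of all windows and likewise in 0 of 13. These letter searches describe the windows only.

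Among the ligands, Efna5 carried the largest difference in either line. Ephrin-A5 is one of the principal repellent cues for retinal axons in their targets. In the Sox2 line the level of Efna5 was 103, 104 and 85.2 CPM in the controls and 31.3, 34.3 and 27.8 in the mutants. Every mutant library was far below every control library, and the mutant mean of 31.1 ± 3.27 CPM (SD, n = 3) was 31.9% of the control mean of 97.5 ± 10.7. The log2 fold change was -1.65 ± 0.10 (SE), with a 95% interval of -1.88 to -1.41 (edgeR FDR 2.64e-05). Efna5 spans chr17:62602957-62881317, with 2 RefSeq transcripts of 643 and 4032 bases that the gene-level counts do not separate, and the loci Gm52303 and Gm46583 overlap it.

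Efna5 of the Nr2f1 mutants lay on the other side of its controls. Its level was 96.4, 91.9 and 99.1 CPM in the controls and 178, 148 and 113 in the mutants. The mutants were all above the controls but spread widely, with means of 95.8 ± 3.61 and 146 ± 32.7 CPM. The log2 fold change was 0.61 ± 0.13, with an interval of 0.31 to 0.91. It did not pass (edgeR FDR 0.0244, called in 3 of 14 alternative fits). Without mutant library C it was 0.76 and passed (edgeR FDR 0.00111), and without mutant library A it was 0.44 and did not (edgeR FDR 0.0660). The summed level of the male-specific genes Ddx3y, Eif2s3y, Kdm5d and Uty ran the opposite way across the same mutants, at 0, 32.5 and 52.1 CPM in libraries A, B and C, against 43.6, 69.1 and 97.4 CPM in controls B, D and E. With the mean log2 level of these genes as a covariate the Efna5 difference was 0.35 (edgeR FDR 0.187). The covariate went in part with genotype in this line, and with it the calls over all genes fell from 396 to 48. The part of the male-specific signal in the Efna5 difference was not tested beyond this covariate.

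Efna2 and Efna3 were the next most abundant ligands. Both are ligands of the EphA receptors that ephrin-A5 binds. Efna2 in the Sox2 line was at 63.1, 57.8 and 55.1 CPM in the controls and at 44.2, 36.9 and 39.9 in the mutants. Efna3 was at 43.0, 35.0 and 35.6 CPM in the controls and at 28.0, 25.1 and 27.3 in the mutants. For both genes each mutant library was below each control library. Efna2 fell to 68.8% of its control mean (log2 fold change -0.54 ± 0.09, edgeR FDR 0.00287), and Efna3 to 70.7% (-0.50 ± 0.10, edgeR FDR 0.00731). Efna2 in the Nr2f1 line was at 64.1, 62.0 and 61.5 CPM in the controls and at 51.1, 60.2 and 53.0 in the mutants, which lay below without passing (-0.19, interval -0.34 to -0.04, edgeR FDR 0.126). Efna3 overlapped between the groups there, at 39.5, 34.0 and 37.7 against 32.9, 36.7 and 31.7 CPM.

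Efna1 and Efna4 were the least abundant ligands. Efna1, also known as an endothelial product, stood at 4.84 to 9.48 CPM in the Sox2 controls and 6.77 to 10.5 in the mutants, and at 5.40 to 6.19 and 5.07 to 7.86 CPM in the Nr2f1 line, with overlap in both. Efna4 was at 1.92, 1.37 and 1.95 CPM in the Sox2 controls and at 3.34, 3.46 and 2.94 in the mutants. The mutants were all above, at 186% of the control mean. The difference of 0.89 ± 0.20 did not pass (edgeR FDR 0.0144, called in 2 of 14 alternative fits). It rested on 58 to 151 counts a library over the 2 lines, the thinnest of the 10 members. Efna4 overlapped in the Nr2f1 line, where all 6 libraries lay between 1.26 and 2.50 CPM. No ligand was called in the Nr2f1 line: 2 of 5 (Efna2 and Efna5) had an unadjusted p under 0.05, DESeq2 called 0 and edgeR's likelihood ratio test called 1. Efna1, Efna3 and Efna4 lie within 66.3 kb of one another on chromosome 3 (chr3:89271730-89338028), and of these neighbours Efna3 alone was called, in the Sox2 line.

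**Figure D1:**
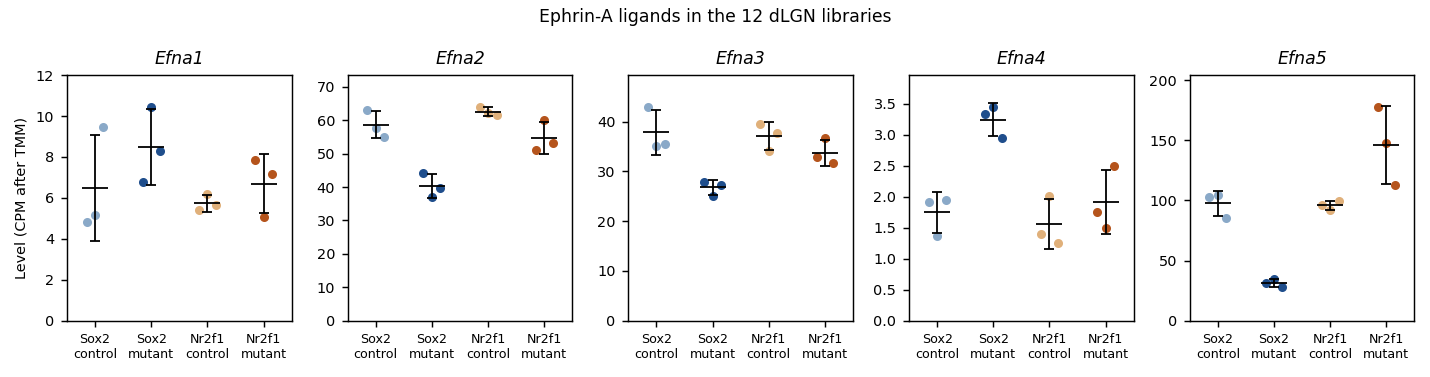
Level of each ephrin-A ligand in CPM after TMM scaling (linear axis from 0, own scale per gene) in each of the 12 libraries, by group. Points are libraries and black marks are the mean ± SD of 3, and Efna5 sits at 27.8 to 34.3 CPM in the Sox2 mutants and at 113 to 178 in the Nr2f1 mutants, on opposite sides of the controls.

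Among the receptors, Epha4 was lower in both mutants. EphA4 binds ligands of both classes and is a main transducer of growth cone repulsion. Its level in the Sox2 line was 239, 208 and 181 CPM in the controls and 115, 144 and 118 in the mutants, 60.1% of the control mean (log2 fold change -0.74 ± 0.12, interval -0.99 to -0.48, edgeR FDR 0.00250). The Nr2f1 line had 271, 233 and 261.5 CPM in the controls and 106, 144 and 99.7 in the mutants, 45.7% of the control mean (-1.13 ± 0.12, interval -1.41 to -0.85, edgeR FDR 0.000878). No mutant library reached the lowest control in either line. With the male-specific covariate the Nr2f1-line value was -1.08, beside -1.13 without it, and no longer passed (edgeR FDR 0.0237). Calls over all genes fell from 396 to 48 in that fit.

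Epha7, whose short splice forms can dampen EphA signalling, showed its larger difference in the Nr2f1 line. Its level there was 90.9, 76.3 and 98.2 CPM in the controls and 27.8, 35.5 and 34.4 in the mutants. The groups were well apart, and the mutant mean of 32.6 ± 4.15 CPM was 36.8% of the control mean of 88.5 ± 11.2 (log2 fold change -1.44 ± 0.11, interval -1.69 to -1.19, edgeR FDR 0.000169). Epha7 in the Sox2 line was at 75.9, 74.7 and 61.7 CPM in the controls and at 44.8, 63.0 and 44.3 in the mutants, so that mutant library 3 lay above the lowest control, and the difference of -0.48 ± 0.14 did not pass (edgeR FDR 0.0380). Without mutant library 3 it was -0.67 and passed (edgeR FDR 0.00357). DESeq2 and edgeR's likelihood ratio test also called Epha7 in the Sox2 line (FDR 0.00499 and 0.00872). Epha7 has 3 RefSeq transcripts of 2880, 6615 and 6746 bases, and the gene-level counts do not say which of them differed.

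Epha5, a receptor of retinal and thalamic axons that mediates repulsion by ephrin-A ligands, was the one member called higher. Sox2-line levels were 79.5, 73.9 and 67.6 CPM in the controls and 97.5, 90.1 and 96.7 in the mutants, all above, at 129% of the control mean (log2 fold change 0.36 ± 0.08, interval 0.19 to 0.53, edgeR FDR 0.00980). Nr2f1-line levels were 93.8, 76.2 and 81.3 CPM in the controls and 59.7, 65.3 and 63.9 in the mutants, all below, at 75.2%. That difference of -0.41 ± 0.08 did not pass (interval -0.59 to -0.24, edgeR FDR 0.0135, called in 4 of 14 alternative fits).

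Epha8 and Epha3 differed less. Epha8 was at 163, 163 and 164 CPM in the Sox2 controls and at 132, 132 and 131 in the mutants, a small step between tight groups (80.7% of control, log2 fold change -0.31 ± 0.06, edgeR FDR 0.00517). Epha8 in the Nr2f1 line was at 171, 174 and 152 CPM against 139, 167 and 139.9, which overlapped (-0.15, edgeR FDR 0.278). Epha3, a high-affinity receptor for ephrin-A5, was at 44.1, 41.8 and 30.0 CPM in the Sox2 controls and 22.6, 31.1 and 24.3 in the mutants, overlapping through control library 3 (-0.57 ± 0.16, edgeR FDR 0.0315). Without control library 3 the value was -0.71 and passed (edgeR FDR 0.00385). DESeq2 and edgeR's likelihood ratio test also called Epha3 in the Sox2 line (FDR 0.00242 and 0.00517). Epha3 overlapped in the Nr2f1 line, at 51.9, 44.2 and 40.1 against 43.0, 44.9 and 35.3 CPM.

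**Figure D2:**
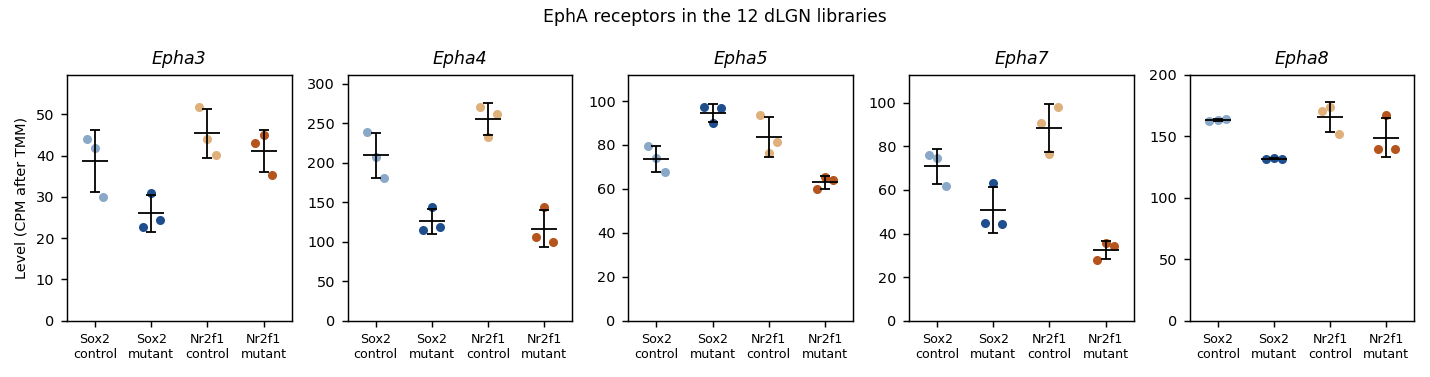
Level of each EphA receptor of the set in CPM after TMM scaling (linear axis from 0, own scale per gene) in each of the 12 libraries, by group. Points are libraries and black marks are the mean ± SD of 3, and Epha7 sits at 27.8 to 35.5 CPM in the Nr2f1 mutants against 76.3 to 98.2 in their controls, while Epha5 is above its controls in the Sox2 mutants and below them in the Nr2f1 mutants.

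Calls of the Sox2 line other than Efna5 changed when single libraries were left out, and so did the calls over all genes. Efna5 alone was called when control library 1, control library 2 or mutant library 4 was left out. Over all genes the 1261 calls of the reported fit fell to 554, 494 and 495 in those 3 fits. They were 882 without mutant library 1, 906 without mutant library 3 and 2161 without control library 3. Without mutant library 1 the calls were Efna2, Efna5 and Epha4 (3 members), and without mutant library 3 they were these and Epha7 (4 members). Without control library 3 there were 7, with Epha3 added to the 6. With the male-specific covariate the calls were again Efna2, Efna5 and Epha4, and 883 genes were called over all genes. The direction of these members held each time, with Efna5 between -1.72 and -1.57 over all 14 alternatives. Efna2 lay between -0.60 and -0.48, Efna3 between -0.55 and -0.40 and Epha4 between -0.85 and -0.63. Epha8 lay between -0.31 and -0.26 and Epha5 between 0.32 and 0.42. Among the Nr2f1-line calls, Epha7 was called in 14 of 14 alternatives and Epha4 in 13 of 14.

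**Figure D3:**
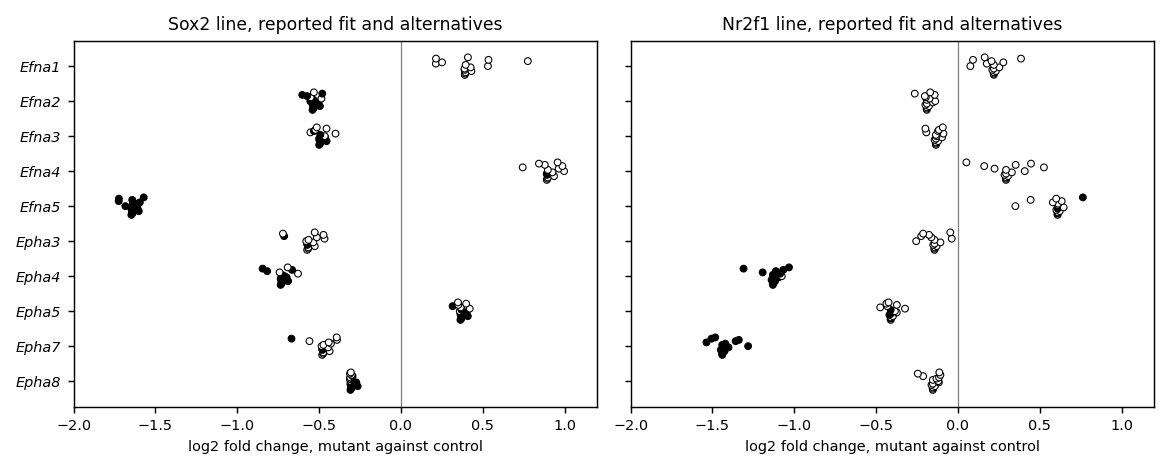
Log2 fold change of each member (x axis, mutant against control) in the reported fit and the 14 alternatives that refit it, for each line. Filled points have an FDR under 0.01, and Efna5 in the Sox2 line and Epha7 in the Nr2f1 line are filled throughout, while the filled and open points of Epha5, Epha8 and Efna3 in the Sox2 line lie at nearly the same fold change.

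Whether the mutants differed from each other was tested as the interaction of line and genotype over the 12 libraries, with values given as the Sox2-line change less the Nr2f1-line change. Efna5 (more negative) and Epha5 (more positive) were called, beside 1.44% of the 15989 genes tested, 1.11% negative and 0.331% positive. For Efna5 the difference was -2.25 ± 0.19 (interval -2.66 to -1.84, edgeR FDR 1.64e-05), called in 19 of 19 alternatives. For Epha5 it was 0.78 ± 0.11 (interval 0.54 to 1.02, edgeR FDR 0.00103), and with the male-specific covariate it was 0.75 and did not pass (edgeR FDR 0.0138). Calls over all genes fell from 231 to 93 with that covariate. This ligand and this receptor thus differed between the mutants in opposite directions. Epha7 differed by 0.97 ± 0.20 without passing (interval 0.53 to 1.40, edgeR FDR 0.0168), so a stronger loss in the Nr2f1 than in the Sox2 mutants was not established at this threshold. Epha4 differed by 0.40 (interval -0.00 to 0.81, edgeR FDR 0.317). Efna2 at -0.34 and Efna3 at -0.36 did not pass either (edgeR FDR 0.118 and 0.166). The intervals of Efna1, Efna4, Epha3 and Epha8 included 0.

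**Figure D4:**
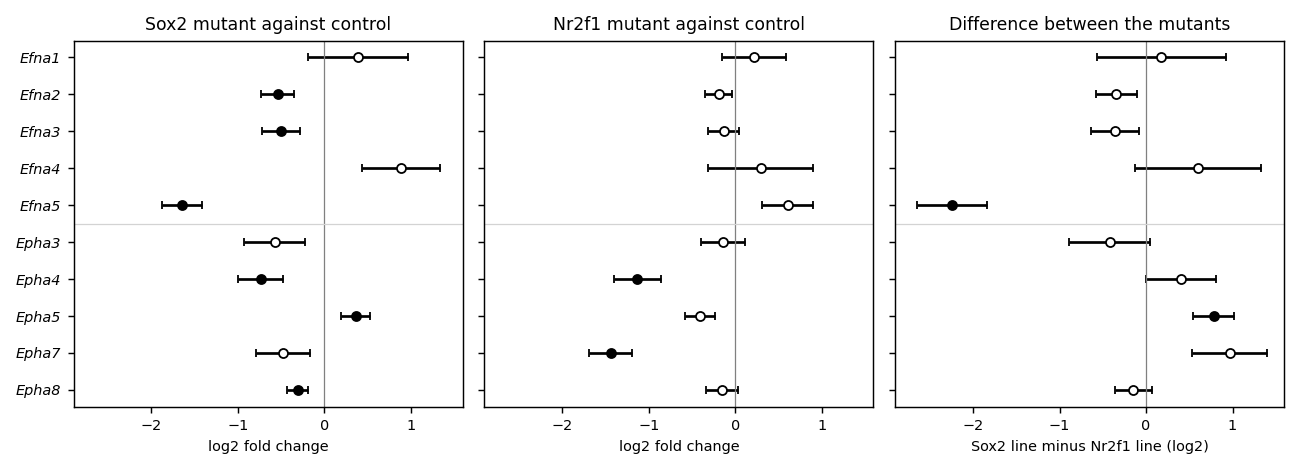
Log2 fold change of the 10 members with 95% intervals in the Sox2 mutants, in the Nr2f1 mutants and as the difference between them (Sox2 line minus Nr2f1 line). Filled points have an FDR under 0.01, with the ligands above the grey line and the receptors below it, and Efna5 and Epha5 are the filled points of the difference, at -2.25 and 0.78.

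Levels of different genes can be compared only per transcript length, and they are given here as CPM per kb of the median RefSeq transcript. In the Sox2 controls the ligands ranked Efna5 (41.7 ± 4.58 CPM per kb, SD, n = 3), Efna2 (27.5 ± 1.92), Efna3 (16.0 ± 1.89), Efna1 (4.18 ± 1.66) and Efna4 (1.09 ± 0.204). The Nr2f1 controls gave the same order, from 41.0 ± 1.55 for Efna5 to 0.976 ± 0.251 for Efna4. The first place of Efna5 depends on the length used: with the longest transcript it was at 24.2 CPM per kb in the Sox2 controls, below Efna2. Among receptors Epha8 (34.6 ± 0.121) and Epha4 (33.1 ± 4.58) did not differ beyond their spread in the Sox2 controls, nor did Epha7 (10.7 ± 1.19) and Epha5 (10.05 ± 0.813), and Epha3 was lowest of the 5 at 6.83 ± 1.33. In the Sox2 mutants Efna5, at 13.3 ± 1.40 CPM per kb, was below Efna2 at 18.9.

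The summed ligand level was 96.2, 90.8 and 84.6 CPM per kb in the Sox2 controls and 52.4, 51.5 and 49.3 in the mutants. The Nr2f1 line had 92.4, 88.1 and 91.6 in the controls and 120.2, 111 and 92.7 in the mutants, with mutant library C just above the highest control and, by the longest transcript, overlapping (72.2 against 71.4 to 74.9). The Efna5 share of the ligand sum was 46.0 ± 3.09% in the Sox2 controls and 26.1 ± 2.24% in the mutants, and 45.2 ± 0.931% and 57.4 ± 5.67% in the Nr2f1 line. By the longest transcript these shares were 33.2 and 17.1%, and 32.4 and 44.1%, with the same order.

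The summed receptor level was lower in the mutants of both lines, at 102, 96.1 and 87.2 CPM per kb in the Sox2 controls against 70.2, 78.1 and 70.7 in the mutants. The Nr2f1 line had 115, 103 and 107 against 66.2, 80.3 and 65.6. The groups did not overlap in either line. In the Nr2f1 mutants Epha4 made up 25.9 ± 2.17% of the receptor sum against 37.2 ± 1.63% in the controls, Epha7 6.99 ± 0.832% against 12.4 ± 1.43%, and Epha8 44.6 ± 0.578% against 32.5 ± 2.87%. The ratio of Efna5 to Epha7, in CPM, was 1.38 ± 0.0215 in the Sox2 controls and 0.624 ± 0.0769 in the mutants, and 1.09 ± 0.102 and 4.61 ± 1.61 in the Nr2f1 line. With 3 libraries a group an exact two-sided permutation test of such sums and ratios cannot give a p below 0.1, so they are given as values.

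**Figure D5:**
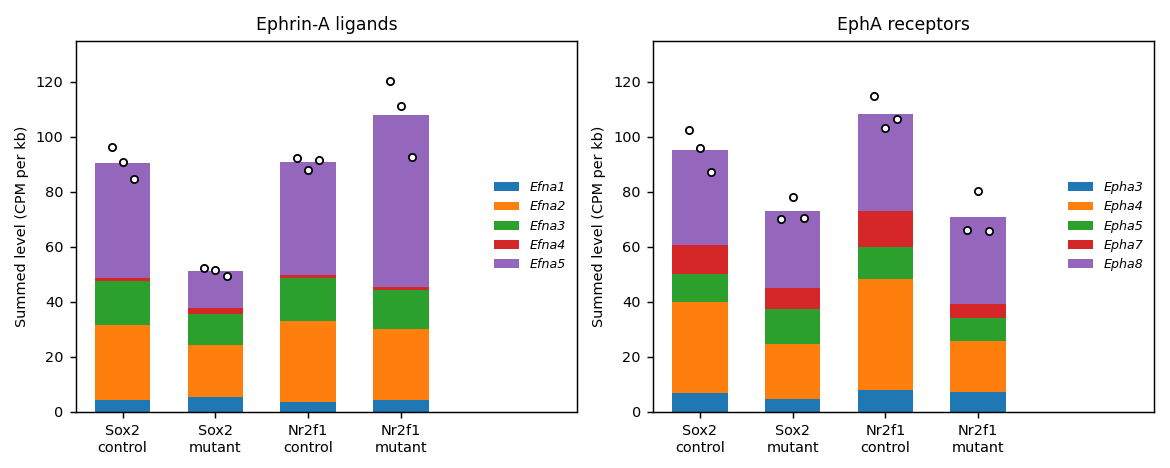
Summed level of the 5 ligands (left) and the 5 receptors (right) in CPM per kb of the median RefSeq transcript, by group. Stacked bars are the group means of each gene from 0 and open points are the sums of the 3 libraries, and the purple Efna5 block is smallest in the Sox2 mutants and largest in the Nr2f1 mutants.

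The EphA receptors outside the set were Epha1, Epha2, Epha6 and Epha10, and 0 of these 4 were called in either line. In each line 1 of them, Epha6, had an unadjusted p under 0.05, and DESeq2 called 0 of 4 in the Sox2 line and 1 of 4 (Epha6) in the Nr2f1 line. Epha6 was at 4.05, 3.48 and 3.06 CPM in the Sox2 controls and 5.82, 4.81 and 5.11 in the mutants, and at 4.71, 4.13 and 4.31 CPM in the Nr2f1 controls and 7.86, 7.71 and 6.26 in the mutants. The mutants were above the controls in both lines, by 0.57 and 0.73 on the log2 scale (edgeR FDR 0.0352 and 0.0116). Epha10 was the most abundant of the 4, at 54.2 to 85.2 CPM over all libraries, and Epha1 and Epha2 stayed between 2.47 and 6.42 CPM.

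Genes that act with ephrin-A and EphA proteins were counted apart from the members. Of 47 such pathway genes outside the set, 3 were called in each line, 6.38%, beside 8.08% (Sox2 line) and 2.54% (Nr2f1 line) of all genes tested, with median log2 fold changes of 0.011 in the Sox2 and 0.017 in the Nr2f1 mutants. Of 26 forward signalling genes, which act inside the receptor-bearing cell, the Sox2 mutants had Vav3 lower and Tiam1 higher, and the Nr2f1 mutants had Ngef and Anks1 higher. Vav3, an exchange factor recruited by active Eph receptors, was at 72.1, 61.1 and 59.6 CPM in the Sox2 controls and 26.6, 27.5 and 26.0 in the mutants (-1.27 ± 0.09, edgeR FDR 3.65e-05). Vav3 in the Nr2f1 line was at 71.4, 68.6 and 66.3 against 65.7, 66.3 and 54.3 CPM, with no call. Tiam1, an activator of Rac, was at 33.9, 31.1 and 31.5 CPM in the Sox2 controls and 43.3, 38.8 and 45.5 in the mutants (0.40 ± 0.08, edgeR FDR 0.00914, called in 8 of 14 alternatives).

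Ngef encodes ephexin, an exchange factor that binds EphA receptors. It was at 10.3, 13.5 and 10.4 CPM in the Nr2f1 controls and at 28.1, 23.8 and 29.5 in the mutants, 238% of the control mean (1.25 ± 0.13, edgeR FDR 0.000566). Its Sox2-line controls were already at 21.1, 20.0 and 21.1 CPM, with mutants at 27.7, 23.6 and 25.7 (0.31, edgeR FDR 0.0361). Anks1, an adaptor that binds EphA receptors, was at 87.7, 82.8 and 81.7 CPM in the Nr2f1 controls and 130.1, 118 and 124 in the mutants (0.56 ± 0.05, edgeR FDR 0.000415). Anks1 in the Sox2 line was at 78.3 to 90.7 CPM in the controls and 80.9 to 93.9 in the mutants.

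Of 6 reverse signalling genes, 1 was called in each line. Ret, a receptor tyrosine kinase that partners ephrin-A proteins on motor axons, fell in the Sox2 mutants from 33.2, 32.7 and 27.7 CPM to 18.8, 16.6 and 16.9 (-0.84 ± 0.10, edgeR FDR 0.000514). Ntrk2, the BDNF receptor and another such partner, fell in the Nr2f1 mutants from 469, 444 and 505 CPM to 335, 376 and 322 (-0.46 ± 0.07, edgeR FDR 0.00525, called in 8 of 14 alternatives). Of 4 B-class genes that bind across the classes (Efnb1, Efnb2, Efnb3 and Ephb2), 0 were called in either line, with 3 and 4 at an unadjusted p under 0.05 in the Sox2 and Nr2f1 lines and 2 called by DESeq2 in each. Of 7 genes for cleavage and shedding of ephrins, 0 were called in either line, with 1 and 2 at an unadjusted p under 0.05 and 1 called by DESeq2 in each.

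Marker genes of other cell types moved with genotype, mostly in the Sox2 line. Of 8 microglial markers 7 rose in the Sox2 mutants, and their summed level was 269 to 311 CPM against 130 to 144 in the controls. Of 8 astrocyte and radial glia markers 6 rose (summed level 2818 to 3247 against 1850 to 2220 CPM). In the Nr2f1 mutants 0 of the 8 microglial markers were called (5 at an unadjusted p under 0.05, 3 by DESeq2, 132 to 163 against 107 to 122 CPM), and of the astrocyte and radial glia markers Aqp4 was called higher (1779 to 1959 against 1603 to 1658 CPM). Of 8 general neuronal markers 2 fell in the Sox2 mutants (6334 to 6838 against 6525 to 7536 CPM) and 0 were called in the Nr2f1 mutants (3 at an unadjusted p under 0.05, 1 by DESeq2, 6686 to 7307 against 7388 to 7544 CPM). The part of these shifts in the members' differences was not tested.

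Markers of the dissected tissue were present in every group. Of 12 markers of thalamic glutamatergic neurons, 4 rose (Gbx2, Calb2, Cacng3, Necab1) and 4 fell (Slc17a6, Lhx9, Rora, Prox1) in the Sox2 mutants, and Lhx2 and Prox1 rose in the Nr2f1 mutants. Their summed level was 1671 to 2178 CPM in the Sox2 controls, 1746 to 1846 in the mutants, and 2038 to 2251 and 2095 to 2392 CPM in the Nr2f1 line. Tcf7l2 was the largest part of the Sox2-line sums, at 632 to 848 CPM in the controls and 825 to 835 in the mutants. The sums hide changes in both directions, such as Rora (298 to 364 CPM in the controls, 76.2 to 100 in the mutants) and Calb2 (76.2 to 92.7 and 178 to 219). Of 8 pallial and hippocampal markers, which would come from neighbouring tissue, Bcl11b and Slc17a7 rose and Prox1 fell in the Sox2 mutants (78.3 to 184 against 72.3 to 105 CPM). Their median log2 fold change there was 1.14, with 7 at an unadjusted p under 0.05 and 4 called by DESeq2. Prox1, which is also in the thalamic list, was the marker called in the Nr2f1 mutants, where it rose (summed level 151 to 182 against 89.5 to 99.3 CPM). The median there was -0.11, with 2 at an unadjusted p under 0.05 and 1 called by DESeq2. Prox1 alone stood at 144, 120 and 105 CPM in the Nr2f1 mutants, most of their sums, and at 53.5, 49.7 and 69.0 in the controls. Of 8 oligodendrocyte markers Mbp rose and Mag fell in both lines (682 to 782 against 558 to 678 CPM, and 511 to 548 against 487 to 497). None of the 9 GABAergic or 8 endothelial markers was called in either line, with 9 and 5 at an unadjusted p under 0.05 in the Sox2 and 5 and 8 in the Nr2f1 mutants. DESeq2 called 5 and 0 of these in the Sox2 line and 1 and 4 in the Nr2f1 line. Over all genes, 5458 of 15602 in the Sox2 line and 3831 of 15600 in the Nr2f1 line had an unadjusted p under 0.05. DESeq2 called 2468 of 15294 and 1112 of 14691. The GABAergic sums were 170 to 222 against 99.3 to 149 CPM in the Sox2 line and 131 to 261 against 130 to 139 in the Nr2f1 line, and the endothelial sums were 431 to 549 against 314 to 478 and 351 to 494 against 293 to 355. The male-specific sums overlapped in the Sox2 line, at 33.6 to 114 CPM in the controls and 54.3 to 110.2 in the mutants, and 0 of these 4 genes were called in either line by edgeR or DESeq2, with 0 at an unadjusted p under 0.05.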

How the data were processed

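Total RNA of pooled P0 dLGNs was extracted, and mRNA libraries were prepared with the Nugen Universal Plus mRNA-seq kit and sequenced as paired reads. The authors aligned reads with STAR to the mouse RefSeq transcriptome (build mm10 in the submitters' processing notes) and estimated expected counts per gene with RSEM, and deposited one table of expected counts per line. Versions of STAR and RSEM and the strand setting are not given in the sources used here, so overlapping antisense loci may share reads with a member. Other annotated loci overlap Efna3, Efna5, Epha3, Epha4 and Epha5. Estimated counts (7.77% not whole) were rounded, and there were 0 entries without a gene name. Column names give the group but not always the numbered sample, so libraries were assigned by group.

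Each line was tested against its own controls with edgeR 4.0.16 in R 4.3.3. TMM scaling, the quasi-likelihood F-test (glmQLFit and glmQLFTest) and the FDR limit of 0.01 follow the study's methods. The filter on low counts (filterByExpr, minimum count 10, minimum total 15) was chosen here, and FDR is by Benjamini-Hochberg over all genes kept. Standard errors are the log2 fold change divided by the root of F, and 95% intervals use its t distribution. The difference between mutants was the interaction term over 12 libraries. Titles number the libraries of a group as replicates and the study's methods describe them as independent pools, so p-values measure the spread between pools. Counting precision is high, since all members but Efna1 and Efna4 had 929 or more counts in every library. CPM used TMM scaling within each line, so levels of the 2 lines come from separately scaled tables. Lengths are those of RefSeq-matched transcripts. Positions and promoters are on GRCm38.

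Alternatives were no filter or a stricter one, upper quartile scaling, DESeq2 1.42.0, the likelihood ratio test, legacy=FALSE, a shared fit, an FDR under 0.05, the mean log2 level of 4 male-specific genes as a covariate, the longest transcript, and leaving out each library. The legacy=FALSE fit was run without TMM scaling, so it changed the scaling as well as that option. The procedure was tested on counts simulated with the same spread between libraries for every gene, which need not match the real spread. Of 50 genes changed 1.5-fold it recovered 40 in the Sox2 line, 37 in the Nr2f1 line and 6 for the difference between mutants. Of 50 changed 2-fold it recovered 50, 50 and 47. Named were the 10 members, the targeted genes, the other EphA receptors, the pathway genes called in either line (up to 3 per list and line by smallest p), and the 3 genes with the highest correlation to Efna5, Epha5 and Epha7 among genes over 10 CPM. Marker genes were named where called. The members and lists were chosen with earlier results of these data known.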

Additional observations from a re-analysis of the deposited data

Results flagged for a closer look

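The changes in the mutants differed between the lines, by the interaction term of edgeR's quasi-likelihood test (FDR under 0.01), for 8 of the named genes. Values are on the log2 scale, with the Nr2f1-line change subtracted from the Sox2-line change. For Efna5 the difference was -2.25 (97.5 to 31.1 CPM in the Sox2 line, 95.8 to 146 in the Nr2f1 line, control to mutant mean). For Epha5 it was 0.78, with group means of 73.6 and 94.7 CPM in the Sox2 line and 83.7 and 63.0 in the Nr2f1 line. Of the pathway genes, Vav3 differed by -1.11, Ngef by -0.93, Ret by -0.68 and Anks1 by -0.52. The targeted genes differed as their labels require, Sox2 by -0.84 and Nr2f1 by 1.19. Control levels of Ngef also differed between the lines, at 20.0 to 21.1 CPM in the Sox2 line and 10.3 to 13.5 in the Nr2f1 line. The lines came in separate tables, so line and table cannot be told apart.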

How the results depend on the processing

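Members called moved from 6 to 3 in the Sox2 line, from 2 to 1 in the Nr2f1 line and from 2 to 1 for the difference between mutants when the male-specific genes were a covariate. In the Nr2f1 line 4 were called with no filter on low counts, by the likelihood ratio test and at an FDR under 0.05. Leaving out each library gave 1 to 7 members in the Sox2 line, 2 to 3 in the Nr2f1 line and 2 for the difference. DESeq2 called 9, 3 and 3. Over all genes, 1261 calls in the Sox2 line became 2468 with DESeq2, 2351 with the likelihood ratio test, 2075 in the fit of 12 libraries and 494 to 2161 without 1 library. The 396 in the Nr2f1 line became 1112, 1089, 48 with the covariate and 133 to 868 without 1 library. The 231 for the difference became 544, 496, 93 with the covariate and 133 to 308. The cause of these shifts was not tested. For single members, 24 of 140 refits in the Sox2 line, 1 of 140 in the Nr2f1 line and 1 of 190 for the difference lost a call, and 8, 7 and 3 gained one. Sign changes touched uncalled values near 0. Over the left-out libraries, Anks1 ran from -0.019 to 0.082 in the Sox2 line, and Epha10 from -0.17 to 0.027 and Epha1 from -0.049 to 0.15 in the Nr2f1 line. For the difference, Epha10 ran from -0.11 to 0.094, Efna1 from -0.0033 to 0.56 and Epha2 from -0.042 to 0.61. With the covariate Epha2 was -0.025 and Epha10 0.0041 in the Nr2f1 line, and by upper quartile the difference for Epha10 was 0.00064. No paired analysis was possible because the column names cannot all be tied to the numbered samples. With 3 pools a group, differences under the printed intervals could not be resolved, and Efna4 is limited by its counts.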

Other observations

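The genes most like Efna5 over the 12 libraries, by Pearson's r of log2 CPM among 10046 genes over 10 CPM, were Fndc9 (r = 0.989, Spearman's rho = 0.979), Tcerg1l (0.987 and 0.846) and Aplp2 (0.978 and 0.951). For Epha7 they were Pex5l (0.976 and 0.979), Htr7 (0.948 and 0.874), a serotonin receptor, and Tox3 (0.945 and 0.937). For Epha5 they were Sv2b (0.908 and 0.923), Prrt2 (0.904 and 0.895) and Bbip1 (0.892 and 0.902). These are descriptions over libraries that share their groups and scaling.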
